A study of Drosophila palustris with 2 samples.

Results

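The genes described here are the 83 of 20053 gene models whose sense reads lay at least 4-fold apart between 2 pools of adult Drosophila palustris, with few reads that were antisense or shared with an overlapping gene. Drosophila palustris is a fruit fly of the quinaria group, and the series was made to annotate its draft genome, with the RNA reads serving as evidence for gene prediction. Both libraries belong to 1 group of 10 to 20 whole adults each, males and females together, kept on a cornmeal, sucrose and yeast diet at room temperature. No treatment, genotype, age or sex ratio was stated for either pool, and nothing in the labels sets one pool against the other. Ratios are given as replicate 2 over replicate 1, so a positive log2 ratio means more reads in replicate 2.

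The members were chosen by their counts in these same libraries. A member had at least 20 sense reads over both libraries, and its share of all sense gene reads differed at least 4-fold between libraries after 0.5 was added to each count (an absolute log2 ratio of at least 2). Antisense reads had to be under 20% of its stranded reads. Under 10% of those reads could be lost when strand was ignored, which happens where a gene on the other strand overlaps it. Since the rule used the ratio itself, the ratios below describe the members, and no test was made of them. Each pool gave 1 library, so the differences have no replicate check, and the intervals quoted are exact 95% Clopper-Pearson intervals that cover counting error only.

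Whole-body poly(A) RNA mixes the transcripts of all tissues of both sexes. The transcripts of a gene active only in 1 organ, in 1 sex or in few animals of a pool are thus diluted by the rest. In such a bulk sample, fewer cells or flies expressing a gene and less RNA per cell cannot be told apart. The libraries came from a directional kit, in which the strand of the original RNA is kept, and reads were therefore counted separately for the annotated strand of a gene (sense) and for the opposite strand (antisense). Genes carry locus tags, which are serial numbers given at annotation. The files pair no tag with a gene name, so no member can be given a role, and markers of tissue or sex were not analysed here.

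Sense gene reads totalled 39026623 in replicate 2 and 46610675 in replicate 1, and 13702 models reached 20 sense reads. Across these genes log2(CPM + 1) correlated between the libraries with Pearson r = 0.985, and with r = 0.987 when the members were left out; genes of 1 pair of libraries are not independent of each other. CPM here is sense reads per 1000000 sense gene reads of the library. It is not corrected for transcript length, so it compares 1 gene between libraries and not the abundance of different genes.

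Slightly more members were higher than lower in replicate 2. Of the 13702 genes, 96 (0.701%) lay past 4-fold before the strand limits were applied, and 83 met those limits. Of the 83 members, 47 (56.6%) were higher in replicate 2. Before the strand limits, 53 of all 13702 genes (0.387%) lay past 4-fold on that side. The other 36 members (43.4%) were lower in replicate 2, and 43 of all 13702 genes (0.314%) lay past 4-fold on that side. The shares of members and of all genes have different bases and cannot be set against each other. The median member differed by 2.76 on the log2 scale, and over all 13702 genes the median absolute log2 ratio was 0.25. The medians of both directions were alike, at 2.75 for the higher and -2.83 for the lower members.

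**Figure D1:**
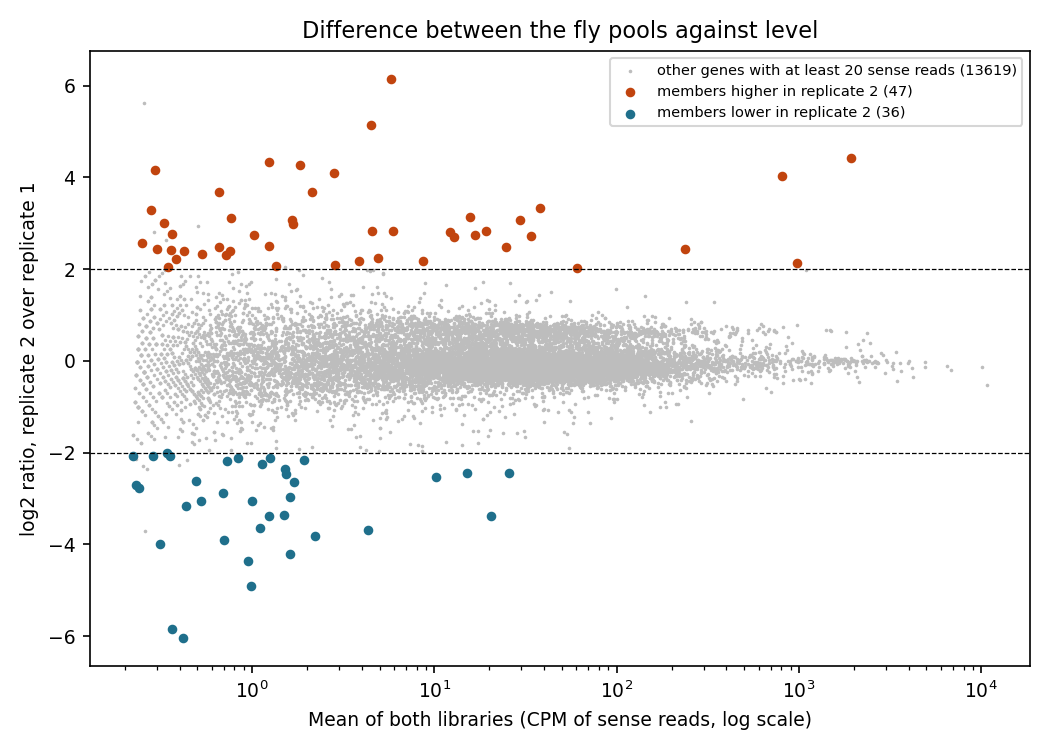
The log2 ratio of replicate 2 over replicate 1 (vertical axis) is plotted against the mean CPM of both libraries (horizontal axis, log scale) for the 13702 genes with at least 20 sense reads, with 47 members higher in replicate 2 in orange, 36 lower in blue and dashed lines at 4-fold. Members higher in replicate 2 reach over 1000 CPM on average while the lower ones stay under 100 CPM, and the grey points outside the lines are the 13 genes left out by the strand limits.

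Most members lay not far past the limit. Between 4-fold and 8-fold were 50 members, 33 were at least 8-fold apart, 11 at least 16-fold and 2 at least 32-fold, with the 2 genes at 0 reads in 1 library taken at the floor of 3 reads given below. Genes on both sides of the limit had nearly the same ratio. Just inside it were ACLKA6_008127 (5 reads in replicate 2 and 26 in replicate 1, 4.03-fold), ACLKA6_011120 (3788 and 1104 reads, 4.10-fold) and ACLKA6_008269 (22 and 6 reads, 4.13-fold). Just outside were ACLKA6_004815 (68345 reads in replicate 2 and 20613 in replicate 1, 3.96-fold), ACLKA6_019844 (266 and 80 reads, 3.95-fold) and ACLKA6_009596 (21 and 6 reads, 3.95-fold).

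Members were mostly genes with few reads. The median member had 113 sense reads over both libraries, against 2002 for all 13702 genes. Under 1 CPM on average were 34 members (41.0%), against 8.89% of all 13702 genes, while 31 members lay between 1 and 10 CPM and 18 at 10 CPM or more. Among genes that met the strand limits, members made up 4.41% of the 521 with 20 to 49 reads and 2.71% of the 554 with 50 to 99. The share was 1.41% of the 1847 genes with 100 or more but under 500 reads, 0.225% of the 1333 with 500 or more but under 1000, and 0.163% of the 7360 with 1000 or more but under 10000. It came to 0.268% (4 genes) of the 1492 with 10000 or more. The spread of the log2 ratio over all genes of these classes narrowed in the same order, with an SD of 1.03 at 20 to 49 reads and 0.37 at 10000 or more. Under 500 reads the directions were balanced, with 32 members higher and 32 lower in replicate 2. At 500 reads and above, 15 were higher and 4 lower. The direction of all genes in these classes was not analysed here.

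**Figure D2:**
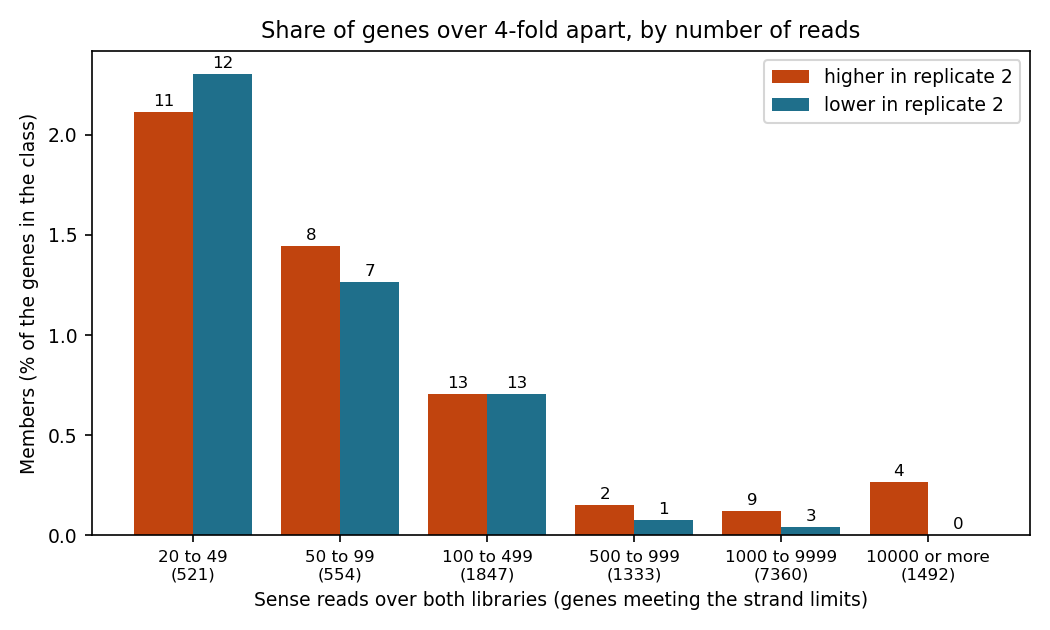
Bars give the percent of genes that are members (vertical axis) in each class of sense reads summed over both libraries (horizontal axis, number of genes in brackets), among genes that met the strand limits, with the number of members above each bar. The share falls from the class of 20 to 49 reads (11 higher and 12 lower in replicate 2) to that of 500 to under 1000 reads, and the 4 members with 10000 or more reads are all higher in replicate 2.

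Many counting intervals were wide. The interval lay wholly beyond 2-fold for 75 of the 83 members and wholly beyond 4-fold for 43. These intervals rest on the same counts that chose the members, so such counts follow largely from the rule and are no separate check. The share of all genes with such intervals was not analysed here. The weakest was ACLKA6_010522, with 3 reads in replicate 2 and 17 in replicate 1, whose log2 ratio of -2.07 had an interval of -4.66 to -0.46. In the library where a member was lower it often had almost no reads. For members with few reads this follows from the rule, since a ratio of at least 4-fold leaves few reads there. Among the 36 members lower in replicate 2, 20 had fewer than 10 reads there and 10 had at most 3. Among the 47 members higher in replicate 2, 17 had fewer than 10 reads in replicate 1 and 4 had at most 3.

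Together the members took 0.778% of the sense total in replicate 2 and 0.0974% in replicate 1. The mean share was 0.438% ± 0.482 (SD, n = 2). Since the members were chosen for differing between these libraries, this SD does not measure the usual spread between pools. Most of these reads came from 3 members with neighbouring tags, ACLKA6_004813, ACLKA6_004814 and ACLKA6_004816, which held 87.3% of the members' reads in replicate 2 and 64.8% in replicate 1. The remaining 80 members took 0.0991% of the sense total in replicate 2 and 0.0343% in replicate 1. In the direction of higher counts in replicate 2, the 47 members had 302787 reads in replicate 2 and 36902 in replicate 1. In the opposite direction, the 36 members had 1023 reads in replicate 2 and 8490 in replicate 1.

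**Figure D3:**
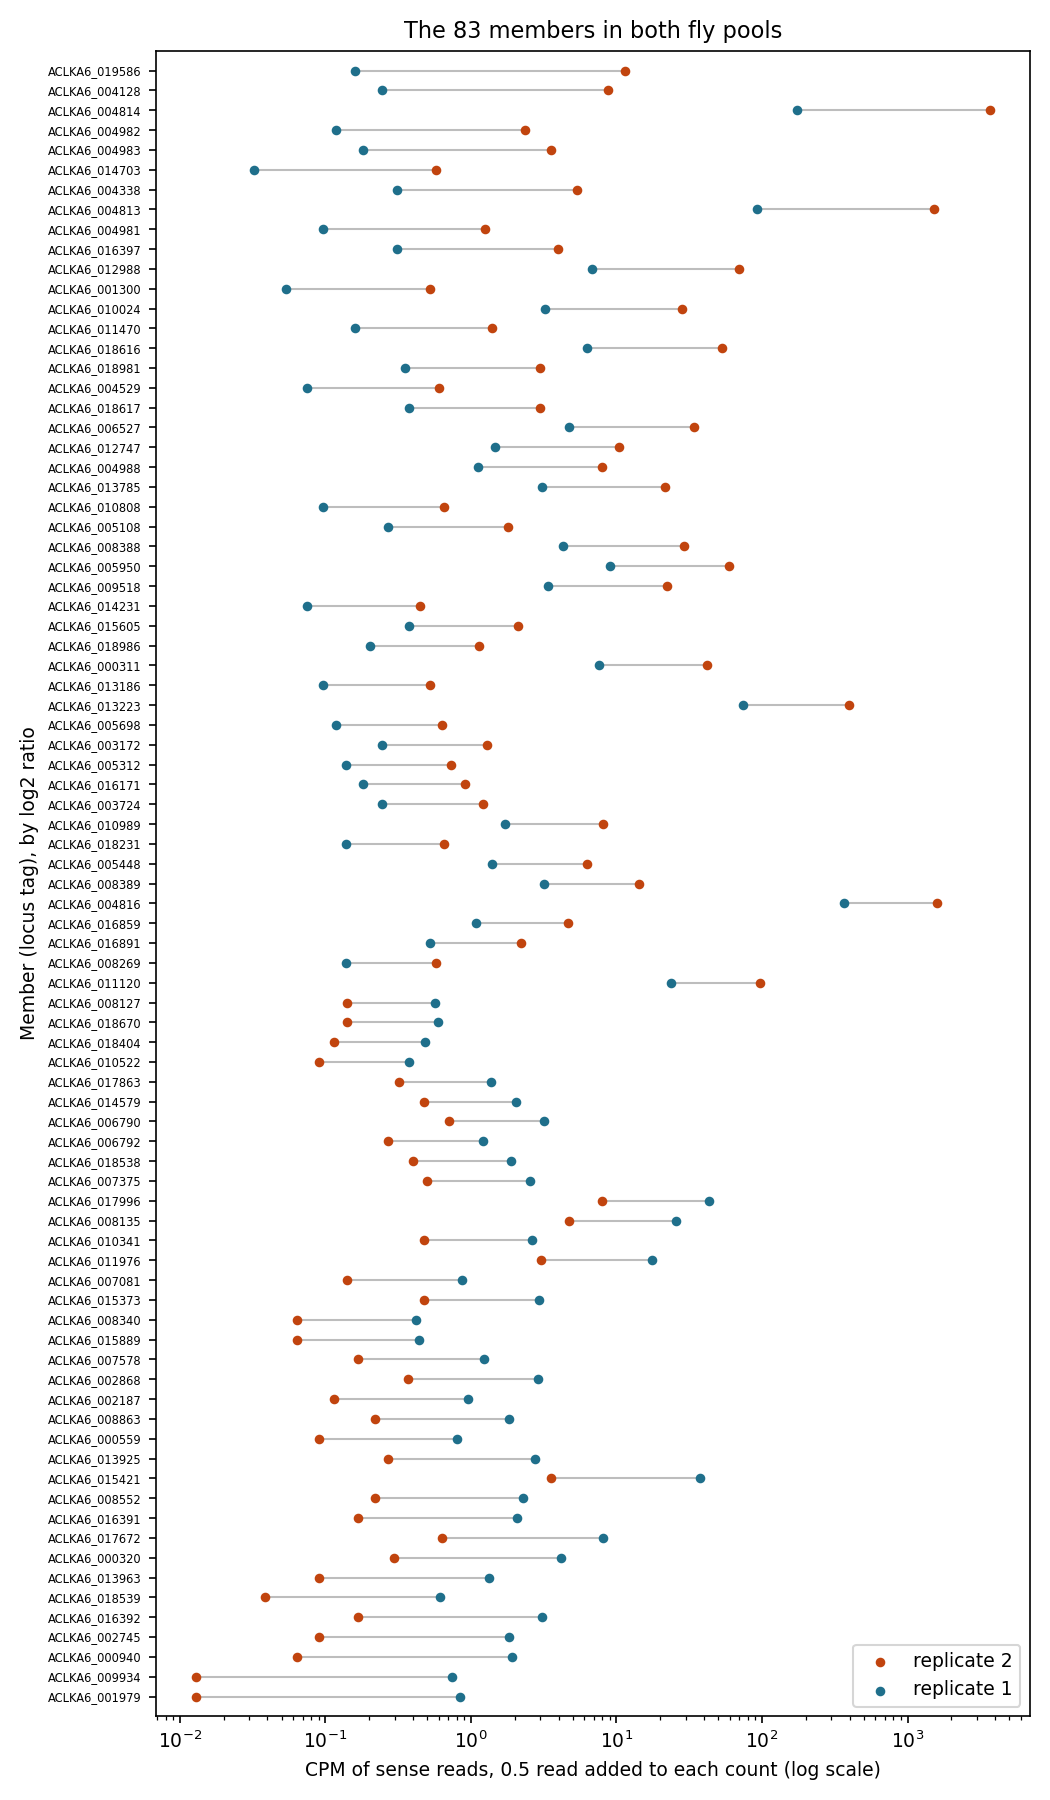
Each of the 83 members (vertical axis, ordered by log2 ratio) is drawn with its CPM in replicate 2 in orange and in replicate 1 in blue (horizontal axis, log scale, 0.5 read added to each count so that counts of 0 can be shown). ACLKA6_004813, ACLKA6_004814 and ACLKA6_004816 stand to the right of all other members in replicate 2, at 1515 CPM or more.

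Of the 6 members farthest apart on the higher side, among those with at least 100 reads, 3 belong to sets of neighbouring genes and follow below. The other 3 had few reads in replicate 1. ACLKA6_019586 had 445 reads in replicate 2 against 7 in replicate 1 and was thus 70.9-fold higher in replicate 2 (log2 ratio 6.15, interval 5.19 to 7.57). ACLKA6_004128 had 340 and 11 reads, 35.4-fold higher in replicate 2 (interval 4.35 to 6.22 on the log2 scale). ACLKA6_004338 had 208 and 14 reads, 17.2-fold higher in replicate 2. None of the 3 was read on the antisense strand, and their levels in replicate 2 were 11.4, 8.71 and 5.33 CPM, which put them at ranks 8980, 9562 and 10465 of that library.

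On the lower side, the 6 farthest members with at least 100 reads lay between 10.4- and 18.5-fold apart. ACLKA6_016392, with 6 reads in replicate 2 against 143 in replicate 1, was 18.5-fold lower in replicate 2 (log2 ratio -4.21, interval -5.79 to -3.16). ACLKA6_000320 followed with 11 and 192 reads, 14.0-fold lower in replicate 2, and ACLKA6_017672 with 24 and 375 reads, 12.8-fold lower. ACLKA6_016391, the gene listed just before the first of these, had 6 reads in replicate 2 against 96 in replicate 1. ACLKA6_008552 had 8 and 106 reads, and ACLKA6_015421 had 139 and 1733 reads, both just over 10-fold lower in replicate 2 (10.5- and 10.4-fold). ACLKA6_015421 had the narrowest interval of these 6 genes, -3.64 to -3.13 on the log2 scale, and also the most reads.

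Only 2 members had no sense read in 1 library, and both were at 0 in replicate 2. ACLKA6_001979 had 0 reads in replicate 2 and 39 in replicate 1. If replicate 2 is allowed the 3 reads that a count of 0 permits, this gene was 10.9-fold lower in replicate 2. That value takes the count of replicate 1 as exact, and the exact interval reached up to a log2 ratio of -3.08. ACLKA6_009934 had 0 and 34 reads, which makes it 9.49-fold lower by the same floor, with an exact interval up to -2.87. Other members with 1 to 3 reads in replicate 2 had wide intervals. ACLKA6_000940 had 2 reads in replicate 2 against 89 in replicate 1 (log2 ratio -4.91, interval -8.29 to -3.32), and ACLKA6_002745 had 3 and 85 (log2 ratio -4.35, interval -6.87 to -2.97). In the other direction, ACLKA6_014703 had 22 reads in replicate 2 and 1 in replicate 1, with a log2 ratio of 4.16 and an interval of 2.09 to 10.08.

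Well-read members were mainly higher in replicate 2, with 14 of the 18 members at 10 CPM or more on that side. The direction of all genes at that level was not analysed here, and ACLKA6_004813, ACLKA6_004814 and ACLKA6_004816 among the 14 carry neighbouring tags. ACLKA6_004814 had 3684 CPM in replicate 2 and 173 CPM in replicate 1, ranking 11 and 917 among all genes of those libraries. ACLKA6_004816 had 1594 and 365 CPM (ranks 94 and 393), and ACLKA6_004813 had 1515 and 92.7 CPM (ranks 100 and 1940). These values rest on 4319 to 143787 reads each, so their counting intervals were narrow, at 4.38 to 4.45, 2.10 to 2.15 and 3.99 to 4.08 on the log2 scale. The fourth by mean CPM, ACLKA6_013223, had 399 CPM in replicate 2 and 73.9 CPM in replicate 1, and the fifth, ACLKA6_011120, had 97.1 and 23.7 CPM.

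The other 9 members on this side at 10 CPM or more lay between 21.4 and 69.0 CPM in replicate 2 and between 3.05 and 8.99 CPM in replicate 1. ACLKA6_012988 was highest and farthest apart of the 9, with 69.0 CPM in replicate 2 and 6.80 CPM in replicate 1. ACLKA6_005950 had 59.0 and 8.99 CPM, ACLKA6_018616 had 52.9 and 6.29 CPM and ACLKA6_000311 had 42.0 and 7.53 CPM. On the lower side there were 4 such members. ACLKA6_017996 had 7.97 CPM in replicate 2 and 43.2 CPM in replicate 1, ACLKA6_015421 had 3.56 and 37.2 CPM, and ACLKA6_008135 had 4.69 and 25.7 CPM. The last of them, ACLKA6_011976, had 3.02 and 17.5 CPM. Of the 1000 genes with the most reads, 4 were members in replicate 2 and 2 in replicate 1.

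Some members lay beside one another in the tables. Both tables list the genes in the same order, in 353 blocks within which the tag number goes up by 1 from gene to gene. In many annotations such an order follows the genome, but coordinates were not used here, so "beside" refers to the table. Of the 83 members, 11 stood directly next to another member, in 5 sets, and in each set all members had the same direction. In all, 18 members stood within 5 places of another. How often other sets of 83 genes would stand this close was not analysed here.

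The set with the most reads was ACLKA6_004813 to ACLKA6_004816, in which ACLKA6_004815 fell just short of 4-fold. Its edges were sharp. The 3 genes before it (ACLKA6_004810 to ACLKA6_004812) had log2 ratios of 0.11, 0.01 and 0.10, and the next 2 after it (ACLKA6_004817 and ACLKA6_004818) had -0.21 and -0.23. ACLKA6_004817 was itself well read, with 1082 CPM in replicate 2 and 1254 CPM in replicate 1. Within the set, the first 2 genes were 16.4- and 21.3-fold higher in replicate 2, while the last 2 were 3.96- and 4.36-fold higher.

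In the same block of 508 genes stood the longest set of adjoining members, ACLKA6_004981 to ACLKA6_004983. These genes had 48, 92 and 137 reads in replicate 2 and 4, 5 and 8 reads in replicate 1, with log2 ratios of 3.69, 4.33 and 4.27. Before the set, ACLKA6_004977 had a log2 ratio of 0.05 and ACLKA6_004978 one of 1.17 (285 and 151 reads). ACLKA6_004979 and ACLKA6_004980, directly before it, had only 11 and 3 reads in replicate 2 and 3 and 0 in replicate 1. The gene after the set, ACLKA6_004984, had 46804 and 54037 reads and a log2 ratio of 0.05. Further on came the member ACLKA6_004988, with 310 reads in replicate 2 and 52 in replicate 1, while the 4 genes between had ratios near 0 (-0.23 to 0.08). After that member, ACLKA6_004990 and ACLKA6_004992 had log2 ratios of 1.24 and 0.96. ACLKA6_004989 had -0.09, and ACLKA6_004991 had only 3 and 6 reads. This block held 8 members, all higher in replicate 2, which was the most of any of the 57 blocks with a member.

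ACLKA6_008388 and ACLKA6_008389 opened a set of 5 genes that were higher in replicate 2 up to the end of their block. They had 1135 and 554 reads in replicate 2 and 201 and 147 in replicate 1 (log2 ratios 2.75 and 2.17). The next 3 genes were not members and had log2 ratios of 1.65, 0.96 and 1.92. The 4 genes before the set had log2 ratios between -0.33 and 0.42. ACLKA6_018616 and ACLKA6_018617 had nearly equal ratios (3.07 and 2.99) at unequal depth, with 2063 and 116 reads in replicate 2 and 293 and 17 in replicate 1. Beyond them, 3 genes without a single sense read followed.

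Members of opposite direction also stood close together. ACLKA6_016391 and ACLKA6_016392 were lower in replicate 2, with log2 ratios of -3.64 and -4.21, and the next gene, ACLKA6_016393, had -1.11 with 33 reads in replicate 2 and 86 in replicate 1. Only 5 places after ACLKA6_016392, ACLKA6_016397 was 12.7-fold higher in replicate 2, with 154 reads there and 14 in replicate 1. It was followed by ACLKA6_016398 and ACLKA6_016399 at log2 ratios of 1.43 and 1.01. ACLKA6_006790 and ACLKA6_006792 had almost the same ratio (-2.17 each), with 27 and 10 reads in replicate 2 and 147 and 56 in replicate 1. The gene between them, ACLKA6_006791, had 186 and 260 reads and a log2 ratio of -0.23.

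**Figure D4:**
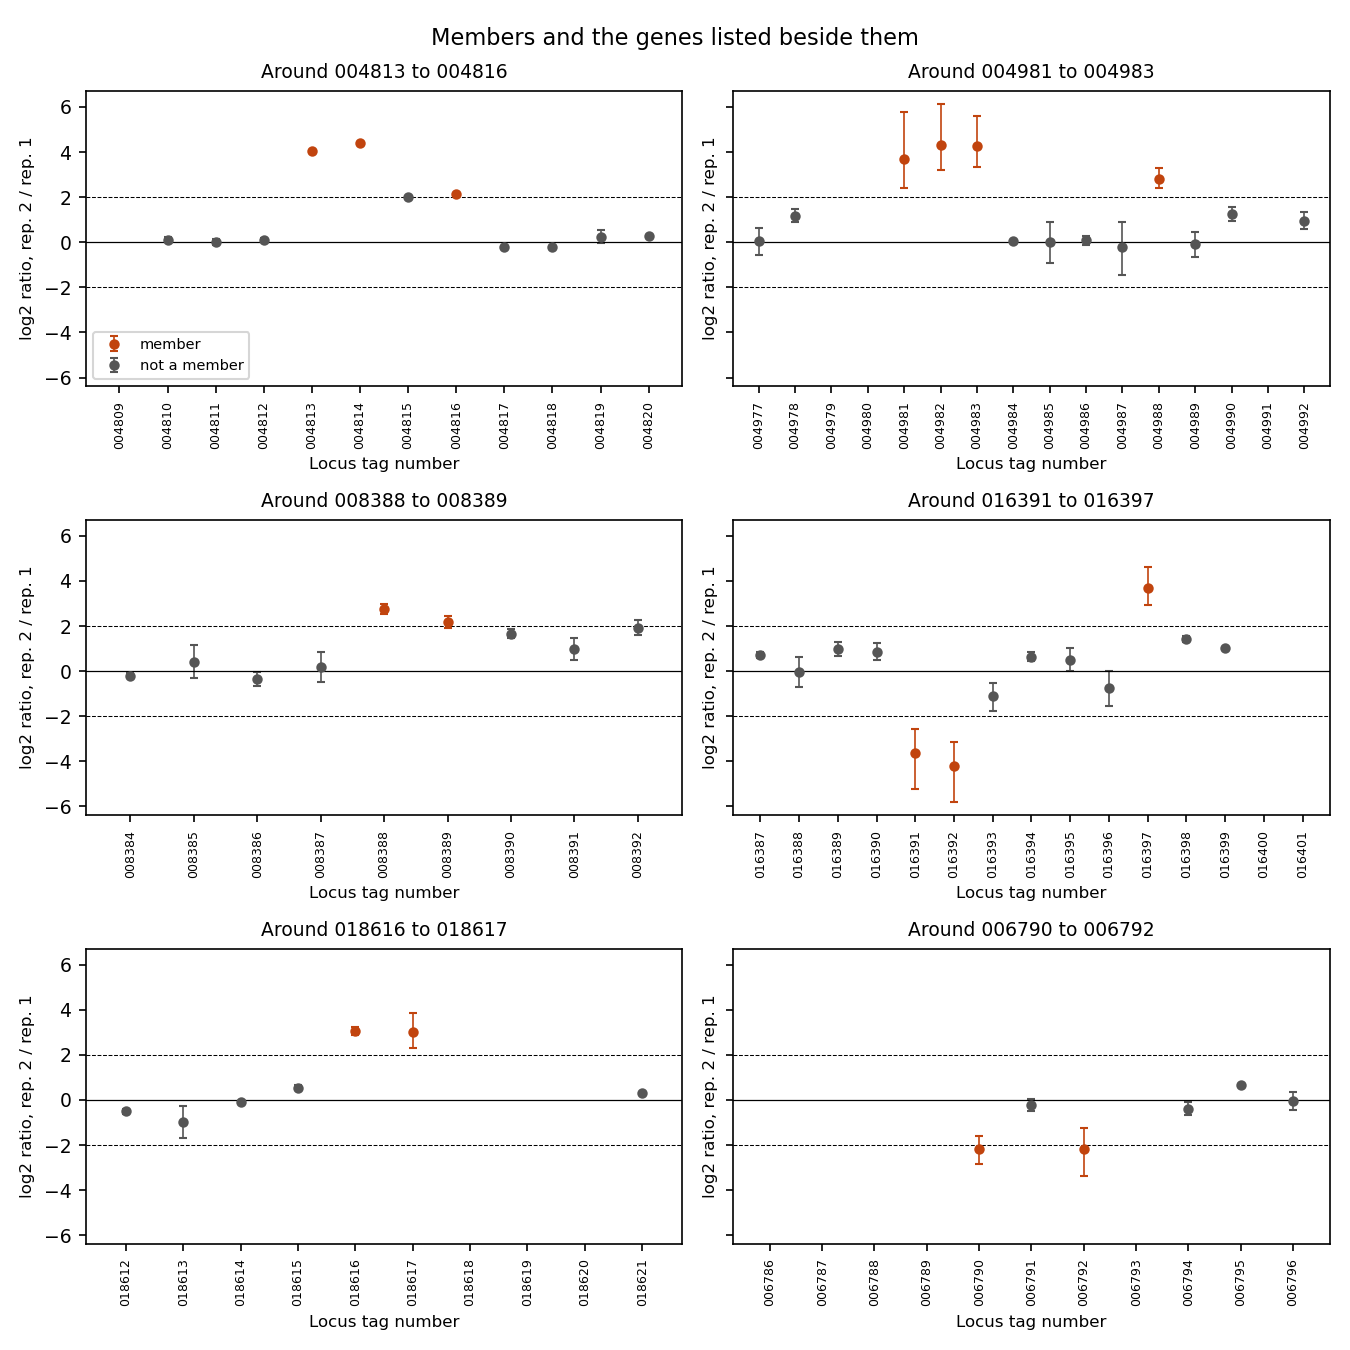
The log2 ratio of replicate 2 over replicate 1 (vertical axis, with 95% counting intervals) is shown by locus tag number (horizontal axis) for 6 stretches of the table, members in orange, other genes with at least 20 sense reads in grey and dashed lines at 4-fold. The ratio drops to near 0 directly outside ACLKA6_004813 to ACLKA6_004816 and stays above 0 from ACLKA6_008388 to ACLKA6_008392, and members of both directions stand within a few places near ACLKA6_016392.

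Among the genes listed beside a member, a larger share was far apart than among all non-members, which include them. These shares describe the same pair of libraries, and no test was made of them. Of 97 non-members with at least 20 sense reads directly next to a member, 21 (21.6%) were at least 2-fold apart, against 522 of all 13619 non-members (3.83%). Of these 21 genes, 18 had the direction of the member beside them. Without the genes past 4-fold that only the strand limits left out, the share was 20% (19 of 95 flanking genes), against 3.74% of all 13606 such non-members. At 2 places from the nearest member the share was 11.2% (10 of 89 genes), at 3 places 5.88% (5 of 85) and at 4 places 5.56% (5 of 90). From 5 to 10 places it varied between 2.38% and 7.23% without a steady order, on 2 to 6 genes each. Between 11 and 50 places it was 3.63%, where 45 of 88 genes had the member's direction. Most genes directly beside a member differed little, with a median absolute log2 ratio of 0.33 against 0.25 for all non-members.

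The flanking genes had fewer reads than other non-members, with a median of 8.65 against 23.6 CPM. Among those with at least 1000 reads, where counting error is small, 7 of 43 flanking genes (16.3%) were at least 2-fold apart, against 0.909% of all 8906 such non-members. The share did not rest on the sets described above: next to the 65 members with no other member within 5 places, 17 of 79 genes (21.5%) were at least 2-fold apart, 14 of them in the member's direction. ACLKA6_017995, beside the member ACLKA6_017996, had 350 reads in replicate 2 against 1205 in replicate 1 (log2 ratio -1.53), and ACLKA6_013224, beside ACLKA6_013223, had 3082 and 1487 reads (log2 ratio 1.31). An exception was ACLKA6_000312, with 468 reads in replicate 2 and 1652 in replicate 1, beside ACLKA6_000311, which was 5.57-fold higher in replicate 2. Genome distances between these genes were not analysed here.

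**Figure D5:**
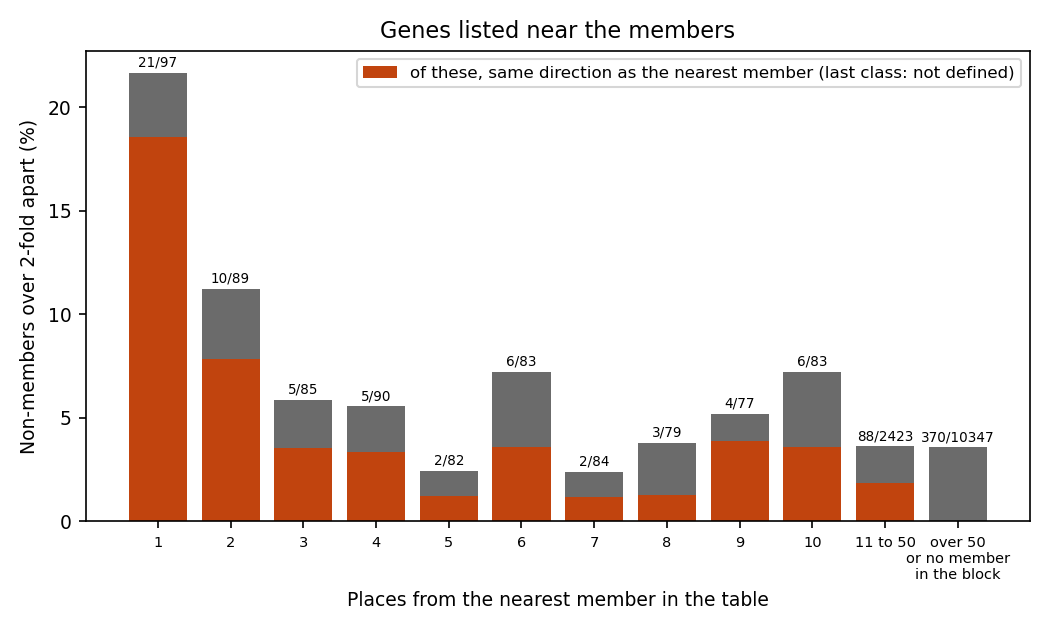
Bars give the percent of non-members at least 2-fold apart (vertical axis) by their distance in table places from the nearest member of the same block (horizontal axis), with counts above each bar and the part that has the member's direction in orange. The share is 21.6% beside a member and 3.63% at 11 to 50 places.

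The members were read on the annotated strand, as the rule required, but their antisense reads between libraries were not part of it. In total the members had 279 antisense reads in replicate 2 and 258 in replicate 1, against 303810 and 45392 sense reads. No antisense read was found for 25 members (30.1%), against 12.7% of all 13702 genes, which had more reads. The median antisense share of the stranded reads went the other way, at 0.59% for members and 0.25% for all 13702 genes. Only 13 members had at least 10 antisense reads, and in 11 of them the antisense ratio had the direction of the sense ratio. In 7 of the 13 the antisense ratio was under 2-fold, so its direction says little, and of those at least 2-fold apart 4 ran with the sense ratio and 2 against it. None of these antisense ratios reached 4-fold (at most 1.97 on the log2 scale). ACLKA6_013223 had 75 antisense reads in each library (log2 ratio 0.26 after scaling), while its sense reads numbered 15565 in replicate 2 and 3445 in replicate 1. ACLKA6_004816 had 47 and 22 antisense reads and ACLKA6_008135 had 6 and 20. The antisense ratio ran against the sense ratio in ACLKA6_010989 (4 antisense reads in replicate 2 and 19 in replicate 1, sense reads 317 and 80) and in ACLKA6_002868 (13 and 6 antisense reads, sense reads 14 and 134).

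Overlap with a gene on the other strand was limited by the rule. Ignoring strand cost 70 of the 83 members no read, and the largest loss was 3.26%, well under the limit of 10%. The share of all genes without such a loss was not analysed here, and most members had few reads to lose. In counts without strand, which hold the same reads, all 83 members had the same direction and 74 remained past 4-fold, the smallest absolute log2 ratio being 1.60. The limits on ratio, antisense share and loss leave hardly any room for a reversed direction, so this is no separate check.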

How the data were processed

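The deposited tables, 1 per library, give raw read counts by gene in 3 columns (without strand, forward and reverse strand). Per the submitters' processing notes, the authors ran fastp and STAR 2.7.11b, and they predicted genes with BRAKER 3.0.6, per the series' design text. Reads that map to several places are not in the gene counts, so genes with near-identical copies may be undercounted. The reverse column was taken as sense, the forward column as antisense. The 4 entries that name no gene were left out; they held 30.1% of the reads of replicate 2 and 26.8% of replicate 1.

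Ratios were computed for all genes in Python 3.11.15 (scipy 1.17.1), scaled by total sense gene reads, and tested on simulated data. With 1 library per pool no test was possible. Alternatives were other read minimums, scalings (TMM in edgeR 4.0.16, size factors of DESeq2 1.42.0), added counts, fold and strand limits, unstranded counts and each library alone. Members and lists were chosen with earlier results of these data known. The genes named are those with the largest ratios (6 per direction, at least 100 reads), highest levels (5 per direction), no reads in 1 library, adjoining tags (3 longest runs), values nearest the limit (3 per side) and most antisense reads (3); any other was chosen after its values were seen. Planned lists of named genes were not used, since the files give no names.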

Additional observations from a re-analysis of the deposited data

Results flagged for a closer look

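Antisense reads, which the ratios do not use, were found in the members above the 3 that a count of 0 allows. They came to 279 over all members in replicate 2 and 258 in replicate 1. Among members with more than 3 antisense reads in a library, 4 had antisense reads that numbered at least 50% of the sense reads there. ACLKA6_002868 had 13 antisense reads in replicate 2, beside 14 sense reads. ACLKA6_017863 had 7 antisense reads in replicate 2, beside 12 sense reads, and ACLKA6_008552 had 4, beside 8. ACLKA6_004983 had 4 antisense reads in replicate 1, beside 8 sense reads. In each of the 4 this was the library in which the member had fewer sense reads. The limits on antisense share and ratio allow no other outcome, so this is no separate result.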

How the results depend on the processing

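Of 69 alternative values, 59 stayed within the tolerance (1.5 times for counts of genes, the SD between libraries for the share of reads), and the other 10 came from stricter limits, which leave fewer genes. A minimum of 100 reads left 45 members, 28 higher and 17 lower in replicate 2, 8 of them with an adjoining tag number and all 45 with an interval beyond 2-fold. A minimum of 8-fold left 33 members, 17 higher and 16 lower, 7 with an adjoining tag number and all 33 with an interval beyond 2-fold. Under both of these limits the interval counts follow from the limits themselves and are no separate check. TMM and DESeq2 size factors each gave 87 members, 82 of them shared with the 83, and split them into 52 higher and 35 lower. The share of sense reads held by the members ranged from 0.0974% to 0.778% with 1 library left out. Without ACLKA6_004813, ACLKA6_004814 and ACLKA6_004816, an alternative chosen after seeing the data, it averaged 0.0667%. The SD of this share between libraries is so wide that it could hardly leave the tolerance. With 1 of the 2 libraries left out it could not leave it at all. A ratio needs both libraries, so none was computed with 1 left out. No paired analysis was possible because a single group was sequenced. Depth limits the size of the ratio: 38 members had under 100 reads, and the intervals of 8 members reached within 2-fold.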

Other observations

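The 13 genes past 4-fold that the strand limits left out all had at least 20% antisense reads, and 1 of them also lost at least 10% of its reads without strand. In replicate 2, 6 were higher and 7 lower, with a median of 24 sense reads. ACLKA6_008551 had 1 sense read in replicate 2 and 23 in replicate 1 (log2 ratio -3.71) and stands beside the member ACLKA6_008552 (-3.39). ACLKA6_015604 had 23 and 3 sense reads (8.02-fold higher in replicate 2) and stands beside the member ACLKA6_015605 (5.63-fold higher). ACLKA6_018436 had 20 sense reads in replicate 2 and 3 in replicate 1, beside 637 and 728 antisense reads.

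The members ACLKA6_018538 (15 reads in replicate 2 and 88 in replicate 1) and ACLKA6_018539 (1 and 28 reads) carry consecutive tag numbers but stand in different blocks of the table. Counted by tag number, 13 members adjoined another, against 11 by table order.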
